A study of Mus musculus with 2 samples.

Results

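Myofibers led by the fast 2X myosin gene Myh1 were compared between those that gave many transcript molecules and those that gave few. The cells were taken by rule from the gene count table: more than 5000 genes detected, less than 20% of gene counts from the mitochondrial genome, and Myh1 the largest of the 5 myosin heavy chain genes Myh1, Myh2, Myh4, Myh7 and Myh8. Of 763 cells, 171 met the first 2 conditions and 117 met all of them. The 117 cells were split by total gene counts into 4 yield groups of 28 to 30 cells, from yield group 1 (lowest) to yield group 4 (highest). The 30 cells of group 4 are called high-yield cells and the 30 of group 1 low-yield cells. The cells were thus chosen by their total gene counts, genes detected, mitochondrial share and myosin heavy chain counts. Total counts, genes detected before thinning, mitochondrial transcripts and the myosin heavy chain shares are therefore given as descriptions only.

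The muscle was the FDB (flexor digitorum brevis), which bends the toes, of 1 untreated C57BL/6J mouse that the labels put at over 3 months of age. The paper instead describes male mice, in the plural, of C57BL/6J and DBA2 background, and how the cells divide between them is not given. By the labels, both groups share genotype, strain, age and treatment. Cells of 1 mouse are not replicates, so no p-value was computed and every interval below covers counting error only. Collagenase-dissociated myofibers were sorted by a large particle sorter into single wells of plates, or cut as fragments in a pseudo-biopsy. They were sequenced on 2 lanes with mcSCRB-seq, in which a unique molecular identifier (UMI) tags each captured RNA molecule. Each cell carries a library index with 8 values in all. Each value is called a plate here, which is an inference from the index.

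A myofiber is a single giant cell with many nuclei, and much of its messenger RNA encodes the contractile filaments, the calcium-handling machinery and the enzymes that renew ATP. Type 2X fibres are fast-twitch fibres that use the heavy chain of Myh1, whereas 2A fibres use that of Myh2 and rely more on oxidative metabolism. Mitochondria transcribe their own small genome inside the organelle, apart from the nuclear and cytoplasmic RNA. The ERCC spike-in is a mix of synthetic RNAs added to the RNA of a sample before it is copied and tagged. Gene UMIs per spike-in UMI thus reflect RNA content, while spike-in UMIs alone reflect capture and sequencing depth. This holds provided that each well received the same amount.

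Low-yield cells had 28827 to 111009 gene UMIs, with a median of 56079.5, and the next cell above them had 116079. High-yield cells had 459614 to 1542996, with a median of 721852, and the next cell below them had 446626. The ratio of the medians was 12.9. Lane 1 held 17 low-yield and 10 high-yield cells, and lane 2 held 13 and 20. Plate 705 held no high-yield or low-yield cell, and 5 of the 8 plates held 3 or more of both. Rows 2 and 5 of the plates held 9 low-yield cells each, against 1 and 2 high-yield cells, so plate position moved with yield and its part in the results was not tested. All 763 cells had distinct barcodes, 1 low-yield cell was a pseudo-biopsy fragment, and whether a well held more than 1 fibre was not tested.

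The label of fast 2X fibre was checked against other fibre-type genes. In thinned counts scaled to a common total (CPM), Actn3, the fast-fibre alpha-actinin, was 3.14 times as high in the 117 Myh1-dominant cells as in the 51 Myh2-dominant cells that met the same filters. Mybpc2, the fast myosin-binding protein C, was 4.21 times and Pvalb, the calcium buffer parvalbumin, 2.80 times as high. Other fast genes differed less, with Atp2a1 at 1.56, Tnni2 at 1.11 and Tnnt3 at 1.09 times. Tnnt1, the slow troponin T, was at 0.108 times and Tnni1, the slow troponin I, at 0.253 times the level in the Myh2-dominant cells. Within the 117 cells, the share of Myh2 in the sum of Myh1 and Myh2 had a median of 18.0% in high-yield and 30.8% in low-yield cells, where its range was 12.2 to 44.1%. The Myh2 share was thus larger in low-yield cells. Its lower quartile was 19.4% there, and its upper quartile in high-yield cells was 23.7%. Most low-yield cells therefore lay above 20% Myh2, the cut used below. The name fast 2X thus covers cells that mix Myh1 with Myh2, more so at low yield. The part of the Myh2 share in the results was not tested beyond the alternatives given with the fibre-type genes.

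The spike-in was used to ask whether high-yield cells held more RNA or were captured more deeply. Spike-in UMIs ranged from 222 to 2111 with a median of 427 in high-yield cells and from 9 to 225 with a median of 72 in low-yield cells, a 5.93-fold ratio of medians. Of the 30 high-yield cells, 28 had more spike-in UMIs than any low-yield cell. Reads differed too, with medians of 4908488.5 and 270704 per cell. The total reads of a cell divided by its gene UMIs had medians of 7.20 in high-yield and 5.83 in low-yield cells. Spike-in molecules, which no fibre makes, thus differed in the same direction as the gene counts. On single plates they did not keep step, since summed spike-in UMIs of high-yield over low-yield cells, with 3 and 8 cells, were at 1.07 on plate 706 and, with 8 and 4 cells, at 83.7 on plate 712.

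After division by the spike-in, a smaller difference remained. High-yield cells had a median of 1544 gene UMIs per spike-in UMI, with a range of 232 to 2717, and low-yield cells 1068, with a range of 188 to 3899. The ratio of the medians was 1.45, and 26 of 30 high-yield cells lay above the low-yield median, while 11 of 30 low-yield cells lay above the high-yield median. From summed counts the ratio was 1.81 (95% limits 1.73 to 1.89). The ratio of medians was 1.32 on lane 1 and 1.54 on lane 2. Within plates it was 3.51 on plate 706, 2.91 on plate 709 and 1.66 on plate 710, but 0.729 on plate 708 and 0.604 on plate 712, the 5 with 3 or more cells on either side, so its direction was not the same on every plate. Over all 117 cells, total gene UMIs had a Spearman correlation of 0.81 with spike-in UMIs and of 0.22 with gene UMIs per spike-in UMI, both of which share the depth of the same library.

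**Figure D1:**
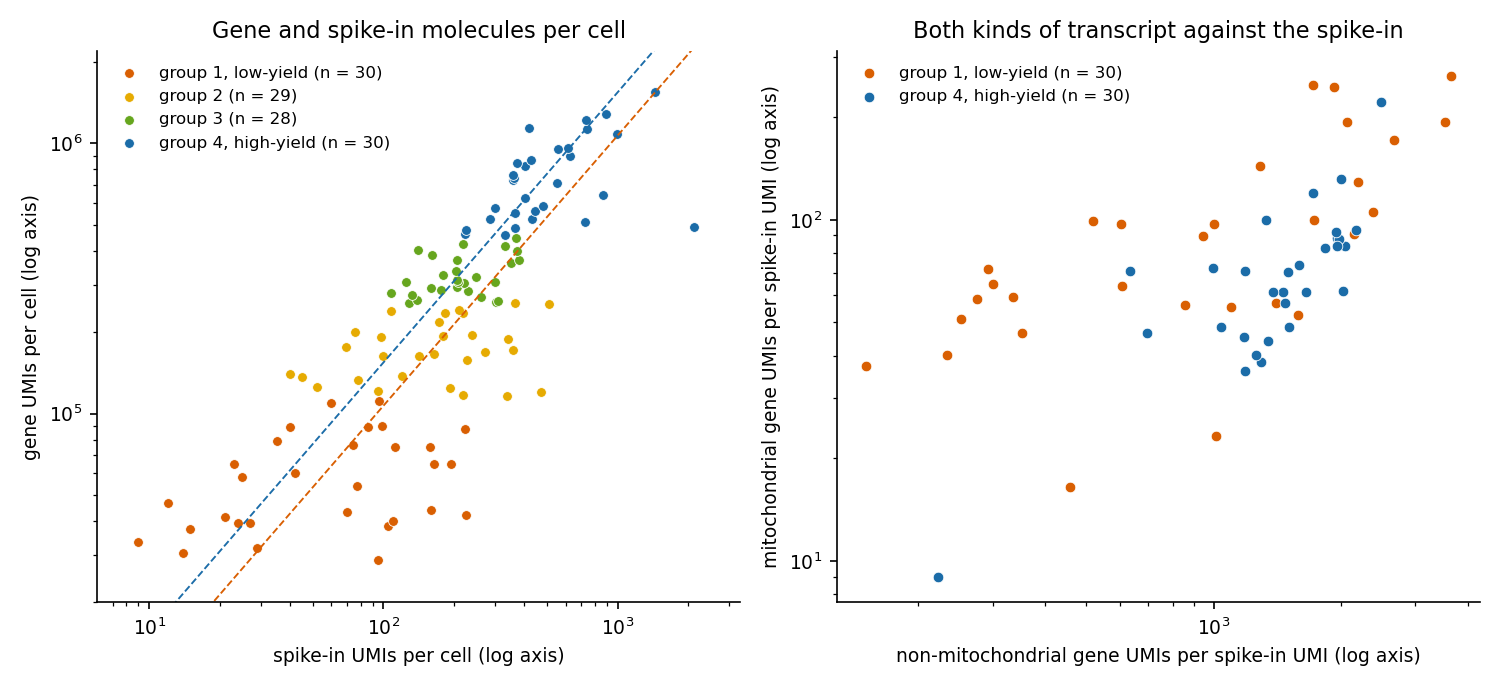
Left, gene UMIs against spike-in UMIs in each of the 117 Myh1-dominant cells, coloured by yield group, with dashed lines at the median ratio of high-yield cells (1544, blue) and low-yield cells (1068, orange). Right, mitochondrial against other gene UMIs, each per spike-in UMI, in high-yield and low-yield cells, where low-yield cells spread from 151 to 3634 on the horizontal axis. All axes are logarithmic.

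The low-yield cells varied widely on this measure, as did yield group 2. Their gene UMIs per spike-in UMI spanned 20.7-fold from the lowest to the highest cell, compared with 13.7-fold in yield group 2, 3.39-fold in yield group 3 and 11.7-fold in high-yield cells. The last span rested on 1 high-yield cell at 232, since the next lowest was at 703. That cell held 2111 of the 17395 spike-in UMIs summed over high-yield cells. Of the low-yield cells, 13 had a mitochondrial share above that of every high-yield cell, from 10.1 to 19.9%, and these had a median of 394 gene UMIs per spike-in UMI. The other 17 had a median of 1639, close to the 1544 of the high-yield cells. The 13 cells comprised 11 from lane 1, among them 6 from plate 706. This division was made after the values were seen. Among the 30 low-yield cells the mitochondrial share and gene UMIs per spike-in UMI had a Spearman correlation of -0.65, and among the 30 high-yield cells 0.03, where both measures share the gene total of the cell. When only cells under 10% mitochondrial counts were split by yield, the ratio of medians was 0.948.

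For comparisons of composition, each Myh1-dominant cell was thinned at random to 28827 gene UMIs, the total of the smallest cell. The number of molecules was thus equal, while reads per gene UMI still differed as given above. At this depth a median of 6312 genes was detected in high-yield and 5441.5 in low-yield cells, a difference of 870.5 genes. Yield groups 2 and 3 lay between at 5463 and 5972. Before thinning, the medians were 17118 and 7660. Of the high-yield cells, 27 detected more genes than the low-yield median, and 7 low-yield cells detected fewer than any high-yield cell. The difference was 1073.5 genes on lane 2 alone and 355 on lane 1 alone. When the cells were regrouped by gene UMIs per spike-in UMI in place of gene UMIs, it turned to -293.5 genes.

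Counts were then summed over the high-yield and over the low-yield cells, and 2372 genes with at least 100 thinned counts over both were compared, without the 5 myosin heavy chain genes of the rule. At least 1.5-fold higher in high-yield cells were 193 genes, or 8.14% of those compared, and at least 1.5-fold lower were 134, or 5.65%. Of these, 184 and 126 had the same direction on both lanes, against 1336 of all 2372, and the lanes are part of the pooled ratio that chose them. When mitochondrial genes were left out before thinning, the counts were 120 and 136. The median log2 ratio of all 2372 genes was 0.06, with quartiles of -0.18 and 0.30, so the middle part of the transcripts lay within 1.5-fold. Without plate 710 the second count was 87 of 1985 genes compared (4.38%), and without lane 2 the counts were 119 and 56 of 938 (12.7% and 5.97%).

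Transcripts of the mitochondrial genome made up the list with the largest difference. These mRNAs encode subunits of respiratory complexes I, III, IV and ATP synthase, and all 9 compared, of 11 in the table, were at least 1.5-fold lower in high-yield cells, against 5.65% of all genes compared. Summed, the list had a median of 503.5 thinned counts per high-yield cell, with a range of 337 to 1034, and of 1105 per low-yield cell, with a range of 319 to 3759. Of the low-yield cells, 16 lay above every high-yield cell, and 1 lay below every one. The log2 ratio of the sums was -1.45 (95% limits -1.48 to -1.43), with -1.71 on lane 1 and -1.08 on lane 2. The ratio was below 0 on all 5 of those plates, from -2.36 on plate 706 to -0.57 on plate 708. In order of yield, the medians of the 4 groups were 1105, 920, 519.5 and 503.5.

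Among its members, mt-Cytb of complex III had a median of 131 thinned counts in high-yield and 281.5 in low-yield cells, a log2 ratio of sums of -1.47 (limits -1.52 to -1.42). mt-Nd1 of complex I was at medians of 113 and 227, and mt-Co1, the catalytic subunit of cytochrome oxidase, at 56.5 and 132, with a log2 ratio of -1.69 (limits -1.77 to -1.61). mt-Nd5 had the smallest difference, at -1.06 (limits -1.18 to -0.93). The mitochondrial ribosomal RNAs were also lower, with mt-Rnr2 at medians of 486.5 and 964 and mt-Rnr1 at 206 and 352.5, and the ratio of their summed counts was -0.73 (limits -0.75 to -0.70). The difference in mRNAs was thus larger than that in rRNAs of the same genome.

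The rule capped the mitochondrial share at 20% in both groups, so the differences in mitochondrial transcripts describe cells already filtered on this share. Over all mitochondrial genes this share had a median of 4.26% in high-yield and 8.77% in low-yield cells, and 7 low-yield cells but no high-yield cell lay at 15% or more. With yield groups taken among cells under 10% only, the log2 ratio of the mitochondrial mRNAs was -0.56, a smaller difference in the same direction. Against the spike-in, mitochondrial UMIs had medians of 70.5 per spike-in UMI in high-yield and 80.6 in low-yield cells, a ratio of 0.874, with 0.651 on lane 1, 0.987 on lane 2 and 0.371 to 1.47 within plates. Non-mitochondrial gene UMIs per spike-in UMI had medians of 1488 and 1008, a ratio of 1.48, with 0.612 to 4.07 within plates. The nuclear-encoded subunits of the same respiratory chain, such as Atp5b and Cox6a2, had a log2 ratio of 0.02 (limits -0.02 to 0.05), and none of the 49 compared reached 1.5-fold in either direction.

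**Figure D2:**
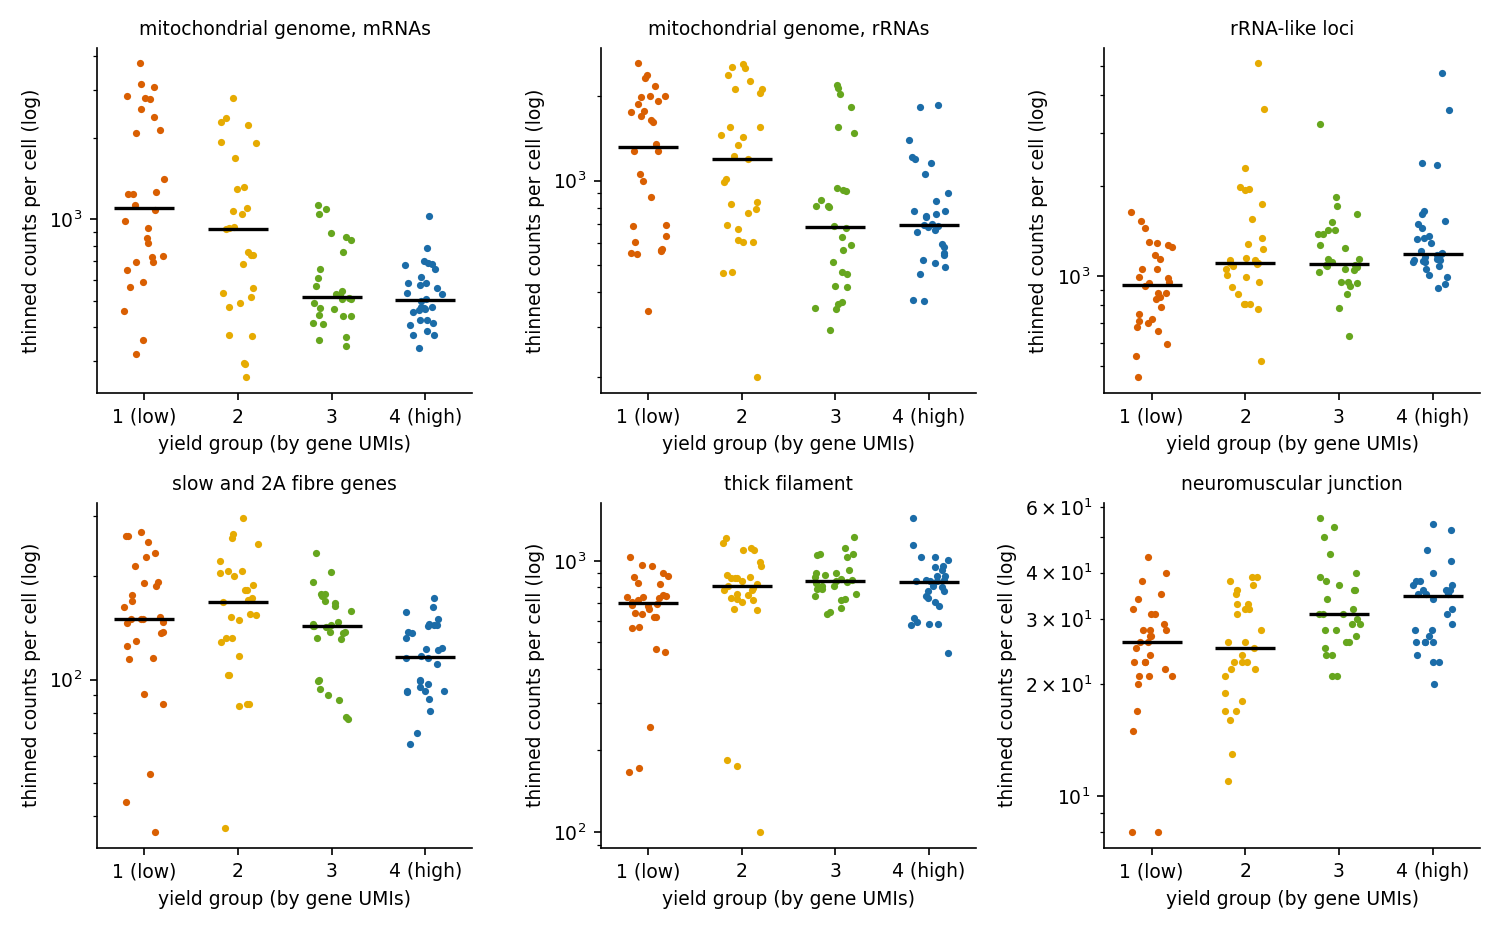
Thinned counts per cell (logarithmic axes) of 6 gene lists in the 4 yield groups, with a bar at the median of each group. Mitochondrial mRNAs had medians of 1105, 920, 519.5 and 503.5 from low to high, whereas the rRNA-like loci had 936, 1107, 1101 and 1187.5.

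A list of 10 loci whose counts have been suspected to hold ribosomal RNA reads was higher in high-yield than in low-yield cells. Such loci, among them Camk1d, Jarid2, Cdk8, Cmss1 and Il31ra, can collect reads that resemble nuclear ribosomal RNA, so their counts are not read here as expression of the named gene. Of the 10, 6 were at least 1.5-fold higher and 0 lower, against 8.14% and 5.65% of all genes. The list had a median of 1187.5 thinned counts in high-yield cells, with a range of 909 to 4741, and 936 in low-yield cells, with a range of 460 to 1632. The ranges overlapped, but 14 low-yield cells lay below every high-yield cell. The log2 ratio of sums was 0.63 (limits 0.60 to 0.65), with 0.70 on lane 1 and 0.66 on lane 2, and it was above 0 on all 5 plates, from 0.25 to 1.38.

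In part this rested on a few cells. Of the high-yield cells, 4 had 2346 to 4741 thinned counts of the list, on plates 708, 709 and 712, and without them the log2 ratio was 0.34, equal to the ratio of the medians over cells. With cells regrouped by gene UMIs per spike-in UMI it was -0.11. Against yield group 2 it was 0.065, and the levels were 33514, 49439, 43253 and 51728 CPM in order of yield. Camk1d was the clearest member, with medians of 283.5 and 136.5 thinned counts, a log2 ratio of 0.91 (limits 0.86 to 0.96), and 0.64 without the 4 cells. Mir6236, a microRNA locus of the list, had a ratio of 0.64 from sums, but medians of 81.5 in high-yield and 100 in low-yield cells, and 0.00 without the 4 cells. Gm26917 of the same list was at -0.20, with medians of 65 and 73.

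The mature sequence of this microRNA, from RefSeq at chr9:110281353-110281371 on the plus strand of GRCm38.p6, is given with its seed (bases 2 to 8) in capitals, since its sums and medians pointed opposite ways and 1131 of its 4989 thinned counts in high-yield cells came from 1 cell.
mmu-miR-6236: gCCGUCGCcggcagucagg

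The next locus was outside that list but moved with the same cells. Gm23935, annotated as a microRNA gene of 57 bases, had a median of 8 thinned counts per high-yield cell, with a range of 2 to 162, and 4 per low-yield cell, with a range of 1 to 22. Its log2 ratio was 1.80 (limits 1.55 to 2.06), the second largest of all genes with the same direction on both lanes, and 0.84 without the 4 cells. It lies at chr16:11144125-11144181 on the plus strand of GRCm38, inside Zc3h7a on the minus strand, and overlaps none of the exons of Zc3h7a. Zc3h7a, a zinc finger gene, had a ratio of 1.64 (limits 1.36 to 1.92), with medians of 5 and 3.5 and, like Gm23935, a drop to 0.83 without the 4 cells. Whether counting used the strand is not given in the sources used here, so reads of the pair cannot be told apart. On plate 706 both were lower in high-yield cells, at -1.06 and -1.04. In both genes yield group 2 was higher than yield group 3, with 487 and 280 CPM for Gm23935.

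Its sequence is printed because all 38 of its 20-base words occur in the transcripts Gm24245 and Gm24270, so that its reads can be assigned to any of them. Capitals mark the bases covered by these shared words, which are all 57, and 73.7% of them are G or C.
Gm23935: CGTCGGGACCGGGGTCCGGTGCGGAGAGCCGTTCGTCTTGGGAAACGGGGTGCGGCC

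The contractile apparatus differed far less. The thick filament list, which holds the light chains Mylpf and Myl1 and the myosin-binding proteins, had a median of 834.5 thinned counts in high-yield and 698 in low-yield cells and a log2 ratio of 0.29 (limits 0.26 to 0.31). Of its 8 members compared, 1 reached 1.5-fold, namely the kinase gene Mylk4, at medians of 11 and 7 counts and a ratio of 0.72 (limits 0.46 to 0.97). Mylpf was at medians of 386.5 and 324.5, a ratio of 0.31. Titin, nebulin and skeletal actin lay within 1.5-fold. Ttn, the giant spring of the sarcomere, was at medians of 1618 and 1323 (0.26), Neb at 419.5 and 347 (0.28), and Acta1, the skeletal actin, at 795.5 and 1017 (-0.22, limits -0.24 to -0.19). Myom3, a myomesin of the M-band, was the 1 lower member among 20 of the titin, Z-disc and M-band list, at medians of 16.5 and 24.5 (-0.60, limits -0.76 to -0.43).

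The triad and calcium handling list had a log2 ratio of 0.16 (limits 0.13 to 0.19) and 0 of 17 members past 1.5-fold. Within it, Pvalb was at medians of 180 and 111 thinned counts (0.44, limits 0.38 to 0.49), whereas the release channel Ryr1 was at 127.5 and 132.5 (-0.02) and the pump Atp2a1 at 85 and 82.5 (-0.01). Glycolysis and glycogen genes had a ratio of 0.03 (limits 0.01 to 0.05), with 0 of 20 past 1.5-fold. Aldoa was at medians of 380.5 and 418.5 and Pygm, the phosphorylase that breaks down glycogen, at 104.5 and 85.5. Creatine and adenine nucleotide genes were at -0.06, and citric acid cycle and fat oxidation genes at -0.06 (limits -0.13 to 0.00), with 0 of 21 past 1.5-fold. The desmin and costamere list was at 0.07, with 0 of 19. These small ratios turned with the choice of cells: when the groups were redrawn among cells under 20% Myh2, with 12 cells each, the thick filament list was at -0.02, the triad list at -0.21 and the glycolysis list at -0.31. The 3 low-yield cells that stood apart by markers of other cell types, described below, lowered the low-yield sums. They held 164, 168 and 176 triad counts, against a low-yield median of 624.5. Their thick filament counts were 173, 166 and 244, against a median of 698.

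**Figure D3:**
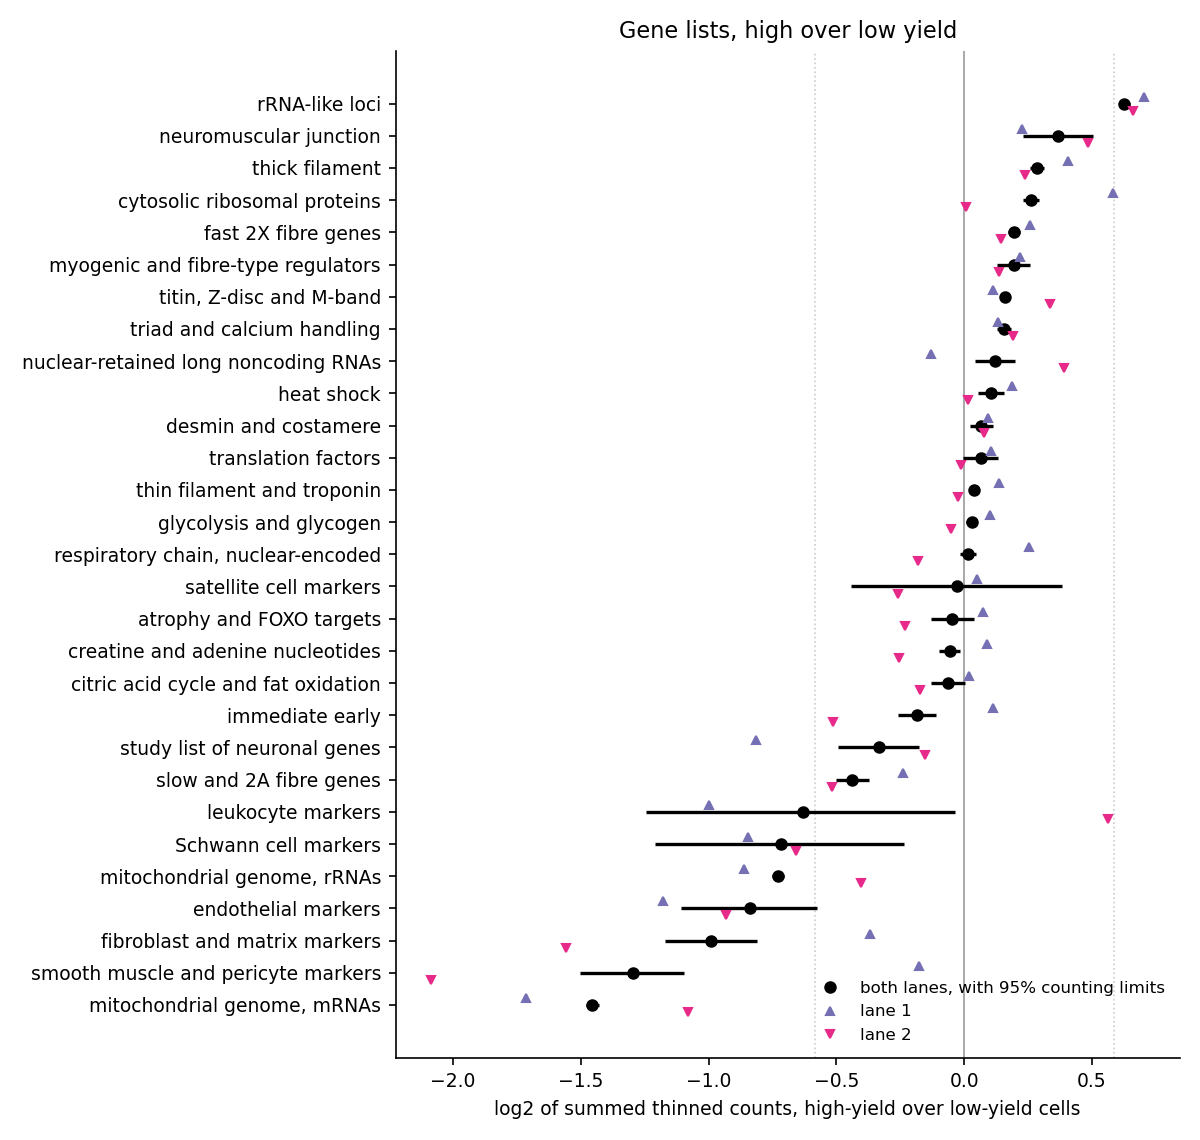
Log2 ratio of summed thinned counts, high-yield over low-yield cells, for the gene lists with at least 100 thinned counts, with 95% counting limits (black) and the values on each lane (triangles); dotted lines mark 1.5-fold. Mitochondrial mRNAs (-1.45) and rRNA-like loci (0.63) lie at the ends, and the contractile and metabolic lists lie near 0.

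Genes of slow and 2A fibres were lower in the high-yield cells. Of 11 compared, 5 were at least 1.5-fold lower and 0 higher, against 5.65% and 8.14% of all genes. The list had a median of 116.5 thinned counts with a range of 65 to 173 in high-yield cells and 150 with a range of 36 to 269 in low-yield cells, and 11 low-yield cells lay above every high-yield cell. The log2 ratio was -0.44 (limits -0.50 to -0.37), with -0.24 on lane 1 and -0.52 on lane 2. Tnnt1 was at medians of 4 and 11 counts (-1.36, limits -1.65 to -1.07). Tpm3, the slow-fibre tropomyosin, was at -1.35, Fxyd6, a regulator of the sodium pump, at -1.11, Myoz2, the slow-fibre calsarcin, at -0.77, and Ckmt2, the mitochondrial creatine kinase, at -0.60. Fast 2X genes were at 0.19 (limits 0.17 to 0.22), with 0 of 10 past 1.5-fold, but at -0.14 under the alternative described next. Since the share of Myh2 also differed with yield, cells with at least 20% Myh2 were left out as an alternative and the groups were redrawn among the remaining cells. This gave 12 cells at each end, of which 12 were among the high-yield and 8 among the low-yield cells described so far, so both the Myh2 share and the low-yield group changed. The slow and 2A list was then at -0.20. With cells regrouped by gene UMIs per spike-in UMI it was at 0.03.

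The same alternative bore on the mitochondrial difference. In these redrawn groups of 12, the mitochondrial mRNAs were at -0.60 in place of -1.45, the mitochondrial rRNAs at -0.16 in place of -0.73, and the rRNA-like loci at 0.54 in place of 0.63. The mitochondrial share and the Myh2 share of a cell had a Spearman correlation of 0.39 in the 30 low-yield cells and 0.20 in the 30 high-yield cells.

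Cytosolic ribosomal protein genes, which make up the protein part of the ribosome, were higher on lane 1. Of 74 compared, 12 were at least 1.5-fold higher and 0 lower, against 8.14% and 5.65% of all genes, among them Rps27 at medians of 5 and 2 thinned counts (0.99, limits 0.58 to 1.41) and Rpl39 at 2.5 and 0.5 (1.23, limits 0.61 to 1.87). The summed list had a ratio of 0.26 (limits 0.23 to 0.29), but 0.58 on lane 1 and 0.01 on lane 2, and -0.05 with cells regrouped by gene UMIs per spike-in UMI. Translation factors were at 0.06 (limits 0.00 to 0.13), with 1 of 16 past 1.5-fold, the poly(A)-binding protein gene Pabpc4.

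Genes of the neuromuscular junction and of muscle identity had a few members past 1.5-fold, 2 of 6 and 3 of 15, against 8.14% of all genes. Of the junction genes, Musk, the receptor kinase that organises the postsynaptic membrane, was at medians of 5.5 and 2 thinned counts (0.82), and Prkar1a, a regulatory subunit of protein kinase A, at 6.5 and 3.5 (0.81, limits 0.48 to 1.14). Chrna1, a subunit of the acetylcholine receptor, was at 4.5 and 4 (0.12, limits -0.22 to 0.45). The list was at 0.37 (limits 0.23 to 0.51), and at 0.05 among cells under 10% mitochondrial counts. Of 15 myogenic and fibre-type regulators, 3 were at least 1.5-fold higher. Maf was at medians of 3 and 1 (1.13, limits 0.59 to 1.68), Myf6 at 3 and 1.5 (0.97, limits 0.48 to 1.48) and Eya4, a transcriptional cofactor, at 9.5 and 5 (0.78, limits 0.50 to 1.06), while the most counted member, Mef2c, was at 51.5 and 49 (0.13).

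The immediate early, heat shock, atrophy, nuclear-retained RNA and neuronal lists had ratios of sums within 1.5-fold. Immediate early genes were at -0.18 (limits -0.26 to -0.11), with 0.11 on lane 1 and -0.51 on lane 2, and at -0.04 without 3 low-yield cells that stood apart by markers of other cell types, of which 1 held 432 of the 2979 low-yield counts. Of 12 compared, Zfp36, which encodes an mRNA decay factor, was at medians of 2 and 3 counts (-1.09) and Ier2 at 2 and 3 (-0.82), while Fos was at 11.5 and 12.5 (-0.15, limits -0.35 to 0.06). Heat shock genes were at 0.11 (limits 0.06 to 0.16), with 0 of 16 past 1.5-fold. Atrophy and FOXO target genes were at -0.05 (limits -0.13 to 0.04), with Cdkn1a as the 1 lower member of 9 at medians of 1 and 2 (-0.91). Nuclear-retained long noncoding RNAs were at 0.12 (limits 0.04 to 0.20), and Malat1 had medians of 63 and 34.5 but a ratio of sums of 0.30. A list of neuronal genes from the study was at -0.33 (limits -0.49 to -0.18), and medians over cells were 19 and 17, so that sums and medians pointed opposite ways. Without those 3 cells it was at 0.34.

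Markers of other cell types were sparse in most cells of both groups, and the largest sums were in low-yield cells. Cells rich in such markers were not confined to low yield. In yield group 2, 1 cell held 125 fibroblast and 167 Schwann marker counts, and others held 84 and 95 endothelial marker counts. The markers of 7 other types (endothelial, smooth muscle and pericyte, fibroblast, Schwann, leukocyte, erythroid and adipocyte) summed to 17 to 125 thinned counts in high-yield cells, with a median of 29.5, and to 14 to 755 in low-yield cells, with a median of 32. They were 0.113% of the thinned counts in high-yield cells and 0.230% in low-yield cells, or 0.112% without the 3 low-yield cells at 755, 256 and 103 counts. Of these, 2 lay on plate 710 and 1 on plate 706. The first of them had 127 counts of Acta2 and 143 of Myh11, both of smooth muscle, with 31 counts of Myh1 and 245 of Ttn. The 3 cells were chosen as the low-yield cells with the largest sums of these same lists. No high-yield cell was left out, although 1, at 125 counts, lay above the third of them, at 103. A move of these lists toward high-yield cells was thus built into the choice. Without the 3 cells the fibroblast list moved from -0.99 to 0.20 and the endothelial list from -0.84 to 0.06. The smooth muscle and pericyte list moved from -1.30 to -0.23 and the erythroid list from -0.43 to 1.09. Several defining markers were at 0 in high-yield cells, such as Cldn5, Tagln and C1qb, others in low-yield cells, such as Postn, C1qa, Fcer1g, Alas2 and Slc4a1, and Adipoq was at 0 in both. Satellite cell markers were at -0.03 (limits -0.44 to 0.38), with 6 and 9 counts of Pax7 in all. Schwann cell and leukocyte markers had 59 and 97 and 40 and 62 counts in all, erythroid markers 26 and 35 and adipocyte markers 4 and 6.

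The 12 genes with the largest ratios toward high-yield cells and the same direction on both lanes began with AU020206, a long noncoding RNA. It had a median of 4 thinned counts, with a range of 0 to 11, in high-yield cells and a median of 1, with a range of 0 to 3, in low-yield cells, and 22 high-yield cells lay above the low-yield median. Its log2 ratio was 2.04 (limits 1.42 to 2.70), from 31.2, 49.0, 80.5 and 128 CPM in order of yield, and it was 2.43 among cells under 10% mitochondrial counts and 1.65 in the Myh2-dominant cells. Gm9843 was at 1.66 (limits 1.06 to 2.31), but all 383 of its 20-base words occur in Fau, the ribosomal protein fusion gene of which it is a processed copy, and Fau itself was at 0.48. Counts of Gm9843 and Fau can therefore not be told apart.

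The remaining genes were counted at a few molecules per cell. Cplx2, a complexin that binds the SNARE complex, was at medians of 4 and 1 counts (1.55, limits 1.07 to 2.06), Cttnbp2, which binds cortactin, at 8 and 3 (1.44, limits 1.09 to 1.81), and Atp8a2, a phospholipid flippase, at 7 and 4 (1.30, limits 0.98 to 1.62). Ppp1r14c, an inhibitor of protein phosphatase 1, was at 3 and 1 (1.38, limits 0.86 to 1.92), with 27 of 30 high-yield cells above the low-yield median. Tmem178b was at 5.5 and 2 (1.35), Odf3l2 at 3 and 1 (114 and 47 in all) and the long noncoding RNA 9330185C12Rik at 4 and 1 (1.42, limits 0.97 to 1.89). Against yield group 2 in place of the low-yield cells, Cplx2 was at 0.11, 9330185C12Rik at 0.05 and Cttnbp2 at 0.32, while AU020206 was at 1.39.

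**Figure D4:**
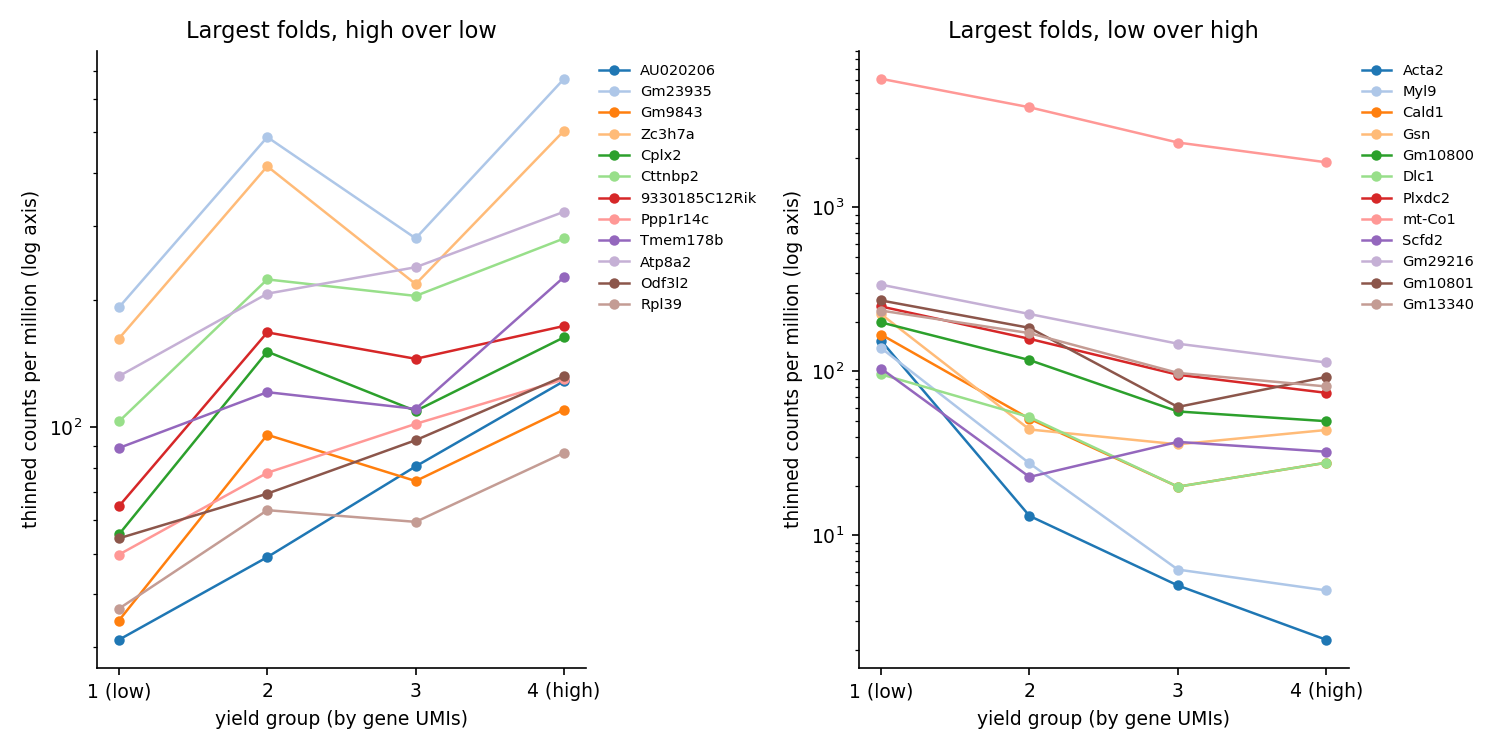
Thinned CPM (logarithmic axis) in the 4 yield groups for the 12 genes with the largest ratios toward high-yield cells (left) and the 12 with the largest ratios toward low-yield cells (right). AU020206 went from 31.2 to 128 over the 4 groups and mt-Co1 from 6072 to 1881.

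Of the 12 genes with the largest ratios toward low-yield cells, 5 rested largely on the cells that stood apart. Acta2 summed to 2 counts in high-yield and 133 in low-yield cells (-6.06, limits -9.12 to -4.17), with 95.5% of the latter in 1 cell. The smooth muscle light chain Myl9 had 93.3% and caldesmon, Cald1, 77.2% of its low-yield counts in 1 cell. Gsn, gelsolin, was at -2.34, with 45.1% in 1 cell. Without the 3 cells Cald1 turned to 0.35, and Myl9 and Gsn were at -0.47 and -0.26. Dlc1, a GTPase-activating protein, was at -1.79 and at -0.32 without the 3 cells.

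The others were spread over many cells. Plxdc2 was found in 30 low-yield cells with a median of 5 counts and a range of 1 to 25. It was found in 25 high-yield cells with a median of 2 and a range of 0 to 6 (-1.75, limits -2.17 to -1.34). Without the 3 cells it was at -1.52. The paper used this gene to set aside nuclei of fibroadipogenic progenitors in nuclear data, and it is in none of the marker lists above. Scfd2 was at medians of 1 and 2 (-1.68), and at 0.51 against yield group 2. The neighbours Gm10800 and Gm10801 on chromosome 2 were at medians of 1 and 3 (-2.00, limits -2.52 to -1.51) and of 1.5 and 5 (-1.55, limits -1.93 to -1.18). Gm10800 was at -4.35 on lane 1 and -1.39 on lane 2, both were higher in high-yield cells on plate 712, at 1.58 and 1.64, and with groups redrawn among cells under 20% Myh2 they were at -0.07 and -0.72.

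Beside mt-Co1 stood a pair of nuclear loci that resemble it. Gm29216, an unprocessed pseudogene on chromosome 1, was at medians of 3 and 8.5 counts (-1.58, limits -1.92 to -1.24), and 97.3% of its 20-base words occur in mt-Co1. Gm13340 on chromosome 2 was at 2 and 5.5 (-1.54, limits -1.95 to -1.14), and 61.1% of its words occur in mt-Co1. Reads of these loci and of mt-Co1 can therefore not be told apart at such words.

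The Myh2-dominant cells gave a comparison of the same kind in another fibre type, with 13 high-yield and 13 low-yield cells of 51 and 5.68-fold between the median totals. Spike-in UMIs differed 3.92-fold and gene UMIs per spike-in UMI 1.26-fold between medians. These cells were thinned to 54160 gene UMIs each, the total of their smallest cell, against 28827 in the Myh1-dominant cells. At this depth, medians of 7657 and 6742 genes were detected, which cannot be set against the numbers detected at 28827. The rRNA-like loci were at 0.88 (limits 0.85 to 0.90). The mitochondrial mRNAs were at -0.38 (limits -0.41 to -0.35), against -1.45 in the Myh1-dominant cells, and the mitochondrial rRNAs at 0.39 (limits 0.37 to 0.41), against -0.73. The mitochondrial share was 7.83% in high-yield and 7.09% in low-yield cells of this type. With 1 mouse, the difference between the fibre types was not tested.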

How the data were processed

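The deposited table holds the authors' UMI counts per gene and cell, with no normalization. Above them stand rows that describe each cell, such as reads, spike-in UMIs, index and lane. Plates were taken from the index. The authors assigned barcodes and UMIs with zUMIs, aligned reads with STAR 2.5.4b to GRCm38 with ERCC sequences, and counted with featureCounts. In the cells that met the filters, the gene rows held a median of 3.11% fewer UMIs than the deposited total of a cell.

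From these counts, the Myh1-dominant cells were split by gene UMIs into 4 yield groups, and counts were thinned without replacement to 28827 per cell with seed 1. The Myh2-dominant cells were thinned in the same way to 54160 per cell. Sums of thinned counts were formed for each yield group, and ratios of the sums were given with exact conditional binomial (Clopper-Pearson) 95% limits. These limits cover counting error only. Genes with at least 100 thinned counts over high-yield and low-yield cells were compared, and a ratio of 1.5-fold was counted. Lists are described by their sums and by their members past 1.5-fold, without a set test. The genes named first were the 12 largest ratios in each direction with the same direction on both lanes, and up to 4 most counted genes of each of 31 lists; others, such as the list members past 1.5-fold, were named after their values were seen. Some genes that this rule names are not reported here. The members, lists and comparisons were chosen with earlier results of these data known. The steps were tested on simulated data with known ratios, with Python 3.11.15, numpy 2.4.6, pandas 2.3.3 and scipy 1.17.1. All simulated cells of a group were drawn from 1 profile, so this test does not cover differences between cells, plates or lanes. Levels per gene are counts of 3' tags and were not divided by length. Sequences came from GENCODE M21 and RefSeq. The counts share their columns with rows in other units and were read as counts after these rows were removed. No doublet caller was run on these sorted wells.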

Additional observations from a re-analysis of the deposited data

How the results depend on the processing

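By the labels, all cells came from 1 mouse, so no value here carries a test of yield across animals. The smallest spike-in total of 9 UMIs in a cell limits the ratio to the spike-in. No paired analysis was possible because all cells come from 1 mouse and the ratios come from no test across samples; values within lanes and plates stand in the report. Groups were redrawn among cells under 20% Myh2 or under 10% mitochondrial counts and shared 8 of 12 and 17 of 23 low-yield cells with the first grouping. Settings that left out single cells, took only cells under 10% mitochondrial counts or used yield group 2 were chosen after seeing the data.

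The count of 193 of 2372 genes at least 1.5-fold higher was 117 of 1401 (8.35%) at the lower thinning depth of 17296, 118 without thinning, 348 with cells regrouped by gene UMIs per spike-in UMI, 120 without mitochondrial genes and 90 of 950 (9.47%) without cells of at least 20% Myh2. It was 1206 with at least 20 thinned counts, 3846 with 1 count on either side, 27 at 2-fold, and 119 to 201 when a plate or lane was left out. The count of 134 lower genes was 62 (4.43%) at the lower depth, 66 (6.95%) without cells of at least 20% Myh2, 1553 and 4471 with the lower count minimums, 42 at 2-fold, 55 against yield group 2, and 56 to 142 when a plate or lane was left out. Fewer genes passed the minimum of 100 counts at the lower depth and with fewer cells. The cause of the other shifts was not tested.

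The ratio of gene UMIs per spike-in UMI from sums, 1.81, was 2.00 with yield groups taken within each plate, 4.41 with cells regrouped by the ratio itself, which fixes its direction, 1.21 without cells of at least 20% Myh2, 1.48 among cells under 10% mitochondrial counts, and 1.31 to 2.07 when a plate or lane was left out. Its ratio of medians was 0.948 among cells under 10% mitochondrial counts. The difference of 870.5 detected genes was 578.5 at the lower depth, -293.5 with cells regrouped by gene UMIs per spike-in UMI, and 355 to 1073.5 when a plate or lane was left out.

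With cells regrouped by gene UMIs per spike-in UMI, the rRNA-like loci were at -0.11, Gm9843 at -0.050 and Rpl39 at -0.47. These groups shared 9 of 30 high-yield and 13 of 30 low-yield cells with those by gene UMIs. Without cells of at least 20% Myh2, the endothelial list was at 0.25, the fibroblast list at 0.23, the leukocyte list at 1.00, the adipocyte list at 1.00 and Cald1 at 0.81. Without the 3 low-yield cells that stood apart, which were chosen by their marker sums, the endothelial list was at 0.057, the fibroblast list at 0.20 and Cald1 at 0.35. The leukocyte list was also at 0.36 without plate 706, 0.56 without lane 1, -1.0 without lane 2, 0.72 among cells under 10% mitochondrial counts and 0.19 against yield group 2. The adipocyte list, with 4 and 6 counts in all, was at 0.24 from mean CPM, 0.38 without thinning, 1.00 without mitochondrial genes, 0.74 without rRNA-like loci, -1.30 without plate 706, 0.11 without plate 708 and 0.05 without plate 709. Scfd2 was at 0.51 against yield group 2. The mitochondrial mRNAs stayed below 0 under every alternative run, from -1.71 to -0.56.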
